A study of Rattus norvegicus with 12 samples.

Results

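Lentiviral knockdown of Grin3a was compared with a vector control in cultured rat hippocampal neurons collected 6 h after withdrawal of tetrodotoxin (TTX). The comparison used 6 of the 12 libraries of the series, chosen by their labels: 3 of group KD_TTXwd and 3 of group Ctrl_TTXwd. KD_TTXwd neurons carried 1 short hairpin RNA against Grin3a in the lentiviral vector pLKO.1, and Ctrl_TTXwd neurons carried pLKO.1 without an insert according to the protocol in the labels. The control columns of the deposited table are named "scr" instead, a short form often used for a scrambled hairpin, and the sources used here do not settle which control was used. Both groups were CD (Sprague Dawley) IGS hippocampal cultures, neuron-enriched, from male and female embryos of stage E18.5. Both were infected 1 day after plating, received 1 µM TTX on day 5 for 48 h, were freed of it for 6 h and were harvested on day 7 in vitro. The other 6 libraries of the series, KD_TTX and Ctrl_TTX, were harvested in TTX and are set beside the comparison where stated. The design does not separate effects of this hairpin on Grin3a from effects it may have on other transcripts, because 1 hairpin was used, and by the protocol the control vector held none. Each library is a bulk culture in which neurons, astrocytes and microglia are mixed, so fewer cells of a type and less RNA per cell cannot be told apart. The labels number the libraries of a group as replicates without saying whether each came from its own culture preparation, so p-values measure only the spread between these samples, which may be technical.

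Grin3a encodes GluN3A, a juvenile subunit of NMDA-type glutamate receptors. Receptors that contain GluN3A pass less calcium and are less blocked by magnesium than those built of GluN1 and GluN2 subunits alone, and GluN3A is abundant in the forebrain around birth and declines as synapses mature. TTX blocks voltage-gated sodium channels and silences action potentials; its removal lets neurons fire again, and the calcium that enters through NMDA receptors and voltage-gated calcium channels drives transcription of activity-induced genes through factors such as CREB, SRF and the MEF2 family.

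Levels are the authors' FPKM, fragments scaled to transcript length and to the mapped fragments of the library. Their sums over 10729 genes lay between 428070 and 471741 in the KD_TTXwd libraries and between 445736 and 480522 in the Ctrl_TTXwd libraries, and the number of reads behind them is unknown. Of the 3 Ctrl_TTXwd libraries, replicate 3 stood apart. Its Pearson correlation across genes, on log2(FPKM + 1), was 0.935 with Ctrl_TTXwd replicate 1 and 0.886 with replicate 2, whereas the KD_TTXwd libraries correlated with each other at 0.961 to 0.983. With the KD_TTXwd libraries Ctrl_TTXwd replicate 3 correlated at 0.868 to 0.955, the most with KD_TTXwd replicate 3. It was the highest of the 6 libraries for 2811 genes and the lowest for 2596 of the 10689 genes tested. The next largest counts were 2277 genes highest in KD_TTXwd replicate 2 and 2427 lowest in Ctrl_TTXwd replicate 1. The results are therefore also given without this library. Markers of neurons, astrocytes and microglia were all above 0 in every library, as were 4 of 4 oligodendrocyte lineage markers and 3 of 3 vascular and fibroblast markers in the table. The summed FPKM of the 4 general neuron markers Tubb3, Rbfox3, Map2 and Snap25 was 661, 819 and 546 in KD_TTXwd and 729, 1073 and 326 in Ctrl_TTXwd.

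Grin3a stood at 28.7% of the control mean with knockdown, and among the other NMDA receptor subunits Grin2a lay above the controls in every knockdown library. The hairpin is printed because it defines the knockdown, as the labels give it, in lower case and 5′ to 3′.
Grin3a hairpin: gctccatgacaagtggtacaa
Grin3a (chromosome 5, 69420057 to 69564696, build rn5) stood at 5.22, 3.32 and 2.502 FPKM in KD_TTXwd replicates 1 to 3 and at 13.8, 19.8 and 4.88 FPKM in Ctrl_TTXwd replicates 1 to 3. The lowest control library, replicate 3, lay just under the highest knockdown library, so the groups overlapped. With Ctrl_TTXwd replicate 3 left out the knockdown mean was 21.9% of the control mean. The log2 difference was -1.42 (SE 0.41), with a limma p of 0.301 after Benjamini-Hochberg adjustment over all genes and an exact two-sided permutation p of 0.2, where 0.1 is the smallest that 3 against 3 can give. Without Ctrl_TTXwd replicate 3 it was -1.95, with an adjusted limma p of 0.108 and an exact permutation p of 0.1, again the smallest possible. Grin3a therefore did not pass the threshold of 0.05 in either case, while the authors' deposited table marks it as lower (log2 ratio -1.80, q = 0.00102). In TTX the log2 difference was -1.48.

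Grin2a, the GluN2A subunit of mature synapses, stood at 6.43, 4.50 and 5.74 FPKM in KD_TTXwd and at 2.87, 2.92 and 1.32 FPKM in Ctrl_TTXwd. Every knockdown library lay above every control library. The log2 difference was 0.99 (SE 0.24, limma adjusted p = 0.263) and 0.74 without Ctrl_TTXwd replicate 3, and the authors' deposited table marks Grin2a as higher (q = 0.00102). In TTX its log2 difference was -0.31. Grin2b, the juvenile GluN2B subunit, stood at 18.0, 13.7 and 12.6 FPKM in KD_TTXwd and at 13.3, 13.1 and 5.29 FPKM in Ctrl_TTXwd, and the groups overlapped. Grin1, the obligatory GluN1 subunit, stood at 36.8, 36.2 and 40.0 FPKM in KD_TTXwd and at 53.3, 58.5 and 25.6 FPKM in Ctrl_TTXwd. Here too replicate 3 decided the overlap: without it both controls lay above every knockdown library, at a log2 difference of -0.56 (limma adjusted p = 0.262). Grin2c and Grin2d lay between 0.229 and 2.60 FPKM in every library, with overlapping groups. Ctrl_TTXwd replicate 3 was the lowest of the 6 libraries for 5 of the 6 subunits tested.

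**Figure D1:**
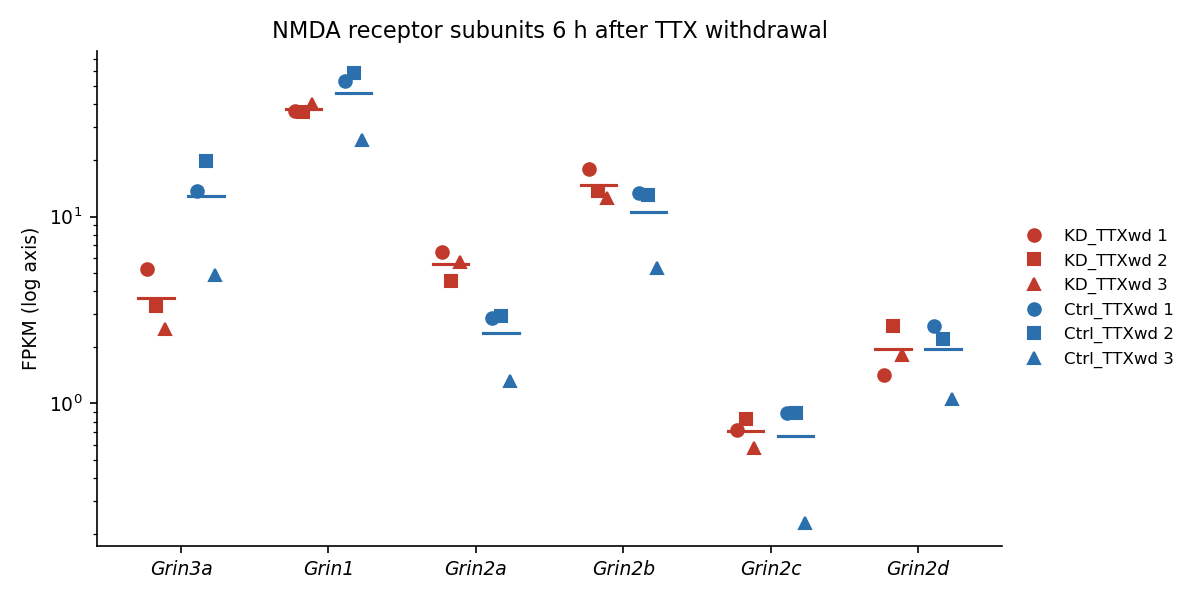
FPKM of the 6 NMDA receptor subunits tested, on a log axis, with 1 point per library and a bar at the group mean, KD_TTXwd in red and Ctrl_TTXwd in blue. For Grin3a the triangle of Ctrl_TTXwd replicate 3, at 4.88 FPKM, lies beside the knockdown circle at 5.22 FPKM, and for Grin2a all 3 knockdown points lie above the controls.

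Across the whole table, Rhob was the gene that passed the test. With limma on log2(FPKM + 1), adjusted over 10689 genes with a threshold of 0.05, 1 gene was called, a share of 0.00936%, and it was lower with knockdown. At an unadjusted limma p under 0.05, 625 genes were higher with knockdown (5.85%) and 651 were lower (6.09%); after quantile normalization these counts were 896 and 546, and with the trend of each library with locus span removed (locus span correction) 787 and 497. All 3 knockdown libraries lay above all 3 controls for 1154 genes (10.8%) and below them for 965 (9.03%). Without Ctrl_TTXwd replicate 3, where 3 libraries face 2, these counts were 2169 (20.3%) and 2464 (23.1%). The authors' deposited table marks 173 of these genes as higher with knockdown (1.62%) and 640 as lower (5.99%) at a q under 0.05.

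Rhob encodes RhoB, a small GTPase of endosomes and the actin cytoskeleton that is itself an immediate-early gene. It stood at 73.3, 64.1 and 67.3 FPKM in KD_TTXwd and at 176, 156 and 165 FPKM in Ctrl_TTXwd. The 3 libraries of each group lay close together, replicate 3 of the control included, and the groups were far from overlapping. The means were 68.2 ± 4.67 FPKM in KD_TTXwd and 166 ± 9.63 FPKM in Ctrl_TTXwd (SD, n = 3), so the knockdown mean was 41.2% of the control mean. Rhob thus fell by 1.27 on the log2 scale (SE 0.14, limma adjusted p = 0.0167). The log2 difference was -1.27 as well when Ctrl_TTXwd replicate 3 was left out, but the limma adjusted p was then 0.0854. The exact two-sided permutation p of Rhob alone was 0.1, the smallest possible. Over 26 alternative settings the log2 difference lay between -1.32 and -1.03 and the adjusted p between 0.00853 and 0.881, and the call was kept in 10. Every alternative that left out any of the 6 compared libraries ended the call. The authors' deposited table also marks Rhob as lower (log2 ratio -1.28, q = 0.00102). In TTX, Rhob stood at 133, 115 and 136 FPKM in KD_TTX and at 164, 190 and 198 FPKM in Ctrl_TTX, a log2 difference of -0.52. The knockdown effect after withdrawal minus that in TTX was -0.75 (SE 0.20), with an unadjusted limma p of 0.00299 that did not survive adjustment (0.492).

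Rhob lies on chromosome 6, 43472712 to 43474862 in build rn5. Its promoter is printed because it is the called gene: the 250 bases before the RefSeq start site on the minus strand of GRCr8, chr6:37085205-37085454, with CCAAT boxes in capitals.
Rhob promoter: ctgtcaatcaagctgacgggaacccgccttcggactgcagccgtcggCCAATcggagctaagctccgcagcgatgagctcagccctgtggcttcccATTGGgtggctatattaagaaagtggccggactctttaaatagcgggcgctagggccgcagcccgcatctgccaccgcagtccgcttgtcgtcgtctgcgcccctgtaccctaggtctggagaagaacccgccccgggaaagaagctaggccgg
CCAAT is bound by the factor NF-Y. It was found on the sense strand from base -203 and, as ATTGG, on the other strand from base -154. Of all 27455 RefSeq promoters, read from 250 bases before to 50 after the start and on both strands, 37.7% held CCAAT, as did 37.7% of the 8283 with a tested gene. The same window of Rhob held no match to TGACGTCA, the cAMP response element bound by CREB, or to TGANTCA, the AP-1 site bound by Fos and Jun. It also held none to the EGR site GCGNGGGCG, the MEF2 site or the CArG box of SRF.

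Among promoters of genes that the authors' deposited table marks, 123 of the higher and 484 of the lower ones were matched. The cAMP response element occurred in 1 of the higher (0.813%) and 12 of the lower promoters (2.48%), against 3.32% of all tested ones. The AP-1 site occurred in 4 of the higher (3.25%) and 32 of the lower ones (6.61%), against 4.58%. The MEF2 site occurred in 2 of the higher (1.63%) and 4 of the lower ones (0.826%), against 1.26%, and the CArG box in 3 (2.44%) and 5 (1.03%), against 1.18%. The EGR site occurred in 10.6% of the higher and 11.0% of the lower promoters, against 10.2%, and CCAAT in 35.8% and 37.0%, against 37.7%. No test was made of these shares.

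**Figure D2:**
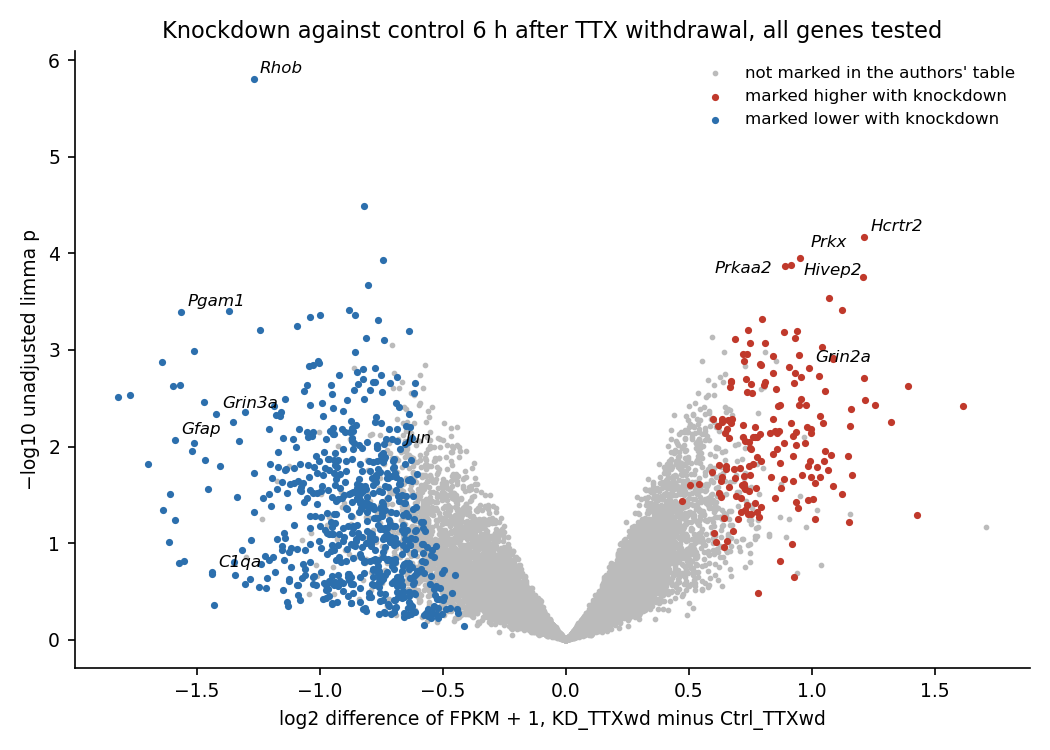
Each point is 1 of the 10689 genes tested: the horizontal axis is the log2 difference, KD_TTXwd minus Ctrl_TTXwd, and the vertical axis is −log10 of the unadjusted limma p. Genes that the authors' deposited table marks are red (173 higher) or blue (640 lower); Rhob stands above all others at -1.27, and C1qa is one of many blue points with a large difference and a low position.

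The higher and lower genes of the authors' deposited table differed in how often their groups overlapped. Of the 173 that the authors' deposited table marks as higher, 132 (76.3%) had groups that did not overlap and 41 overlapped. When Ctrl_TTXwd replicate 3 was left out all 173 kept their direction, and that library had been the lowest of the 6 for 124. Of the 640 that the authors' deposited table marks as lower, 195 (30.5%) did not overlap and 445 did. Ctrl_TTXwd replicate 3 was the highest of the 6 libraries for 310 of the 640 and over 2 times the next library for 161. No matching count was made for the higher genes in which it was the lowest. Without it, 566 kept the lower direction and 74 turned to the higher one. The 173 and the 74 cannot be set against each other. Leaving out a low control can raise the control mean only to a limited degree, so a marked higher gene could hardly turn. Leaving out a high control has no such bound.

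Among genes that the authors' deposited table marks, whose groups did not overlap and whose higher group averaged at least 2 FPKM, the largest differences were those of Slc6a7, Ddn and Plcxd3 on the higher side and of Car3, Foxj1 and Id3 on the lower side. The 10 largest are described on the higher side, and on the lower side the 9 largest beside Rhob, which is included as the gene limma called and not for its size. Besides Rhob, none of the 20 passed by limma (adjusted p from 0.209 to 0.328). On the higher side, Slc6a7, a brain proline transporter, stood at 7.87, 13.1 and 6.24 FPKM in KD_TTXwd and at 3.65, 3.73 and 0.434 FPKM in Ctrl_TTXwd (log2 difference 1.61). Ddn, which encodes the dendritic protein dendrin, stood at 36.5, 57.4 and 45.6 FPKM in KD_TTXwd and at 20.6, 26.2 and 8.62 FPKM in Ctrl_TTXwd (1.39). In both, the lowest value was that of Ctrl_TTXwd replicate 3, and without it the log2 differences were 1.04 and 0.95. Hcrtr2, an orexin receptor, stood at 4.56, 4.44 and 3.35 FPKM in KD_TTXwd and at 1.19, 1.80 and 0.726 FPKM in Ctrl_TTXwd. Its log2 difference of 1.21 (SE 0.20, limma adjusted p = 0.209) was 1.04 without replicate 3. Slitrk1, a synaptic adhesion protein, stood at 39.5, 55.1 and 43.0 FPKM in KD_TTXwd and at 19.3, 31.1 and 11.3 FPKM in Ctrl_TTXwd (1.21). Nrp1, the semaphorin receptor neuropilin-1, was the most abundant of the 10, with 127, 189 and 117 FPKM in KD_TTXwd and 63.5, 111 and 34.6 FPKM in Ctrl_TTXwd (1.15). The others were Plcxd3, the acetylcholine-degrading enzyme Ache, the RNA methyltransferase family gene Nsun7, the sodium pump regulator Fxyd7 and the neuronal surface protein Thy1, with log2 differences of 1.15 to 1.26. For these 10 the difference without replicate 3 was smaller, 0.62 to 1.04. Their groups did not overlap by selection, so leaving out that library could not make them overlap.

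On the lower side, Car3, a carbonic anhydrase, stood at 11.0, 3.78 and 7.74 FPKM in KD_TTXwd and at 41.9, 24.4 and 19.3 FPKM in Ctrl_TTXwd (log2 difference -1.82). Foxj1, the master regulator of motile cilia, stood at 6.05, 3.48 and 12.9 FPKM in KD_TTXwd and at 36.3, 13.1 and 32.0 FPKM in Ctrl_TTXwd (-1.77). Id3, an inhibitor of differentiation in progenitors and glia, stood at 5.44, 4.92 and 11.0 FPKM in KD_TTXwd and at 36.6, 17.7 and 18.6 FPKM in Ctrl_TTXwd (-1.64). The highest value of all 3 genes was that of Ctrl_TTXwd replicate 1, not replicate 3. Pgam1, a glycolytic enzyme, stood at 43.6, 25.4 and 37.6 FPKM in KD_TTXwd and at 99.2, 97.3 and 118 FPKM in Ctrl_TTXwd (-1.56, SE 0.32, limma adjusted p = 0.263). Metrn, a glial differentiation factor, stood at 4.28, 6.27 and 7.40 FPKM in KD_TTXwd and at 37.4, 14.0 and 13.5 FPKM in Ctrl_TTXwd (-1.57). Gfap, the astrocyte intermediate filament, stood at 277, 111 and 262 FPKM in KD_TTXwd and at 948, 354 and 662 FPKM in Ctrl_TTXwd (-1.59). Crip1, Nkain4 and Fbxo2 stood at -1.60 to -1.51. With Rhob, the 10 lay between -2.05 and -1.27 when Ctrl_TTXwd replicate 3 was left out. Their groups, too, did not overlap by selection, whether or not that library was kept. The summed FPKM of the 12 astrocyte markers tested was 2218, 1268 and 2121 in KD_TTXwd and 3216, 1901 and 3467 in Ctrl_TTXwd. Gfap is among the 12, so the sum is not separate from it. The part of astrocyte content in the differences of the lower genes was not tested.

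**Figure D3:**
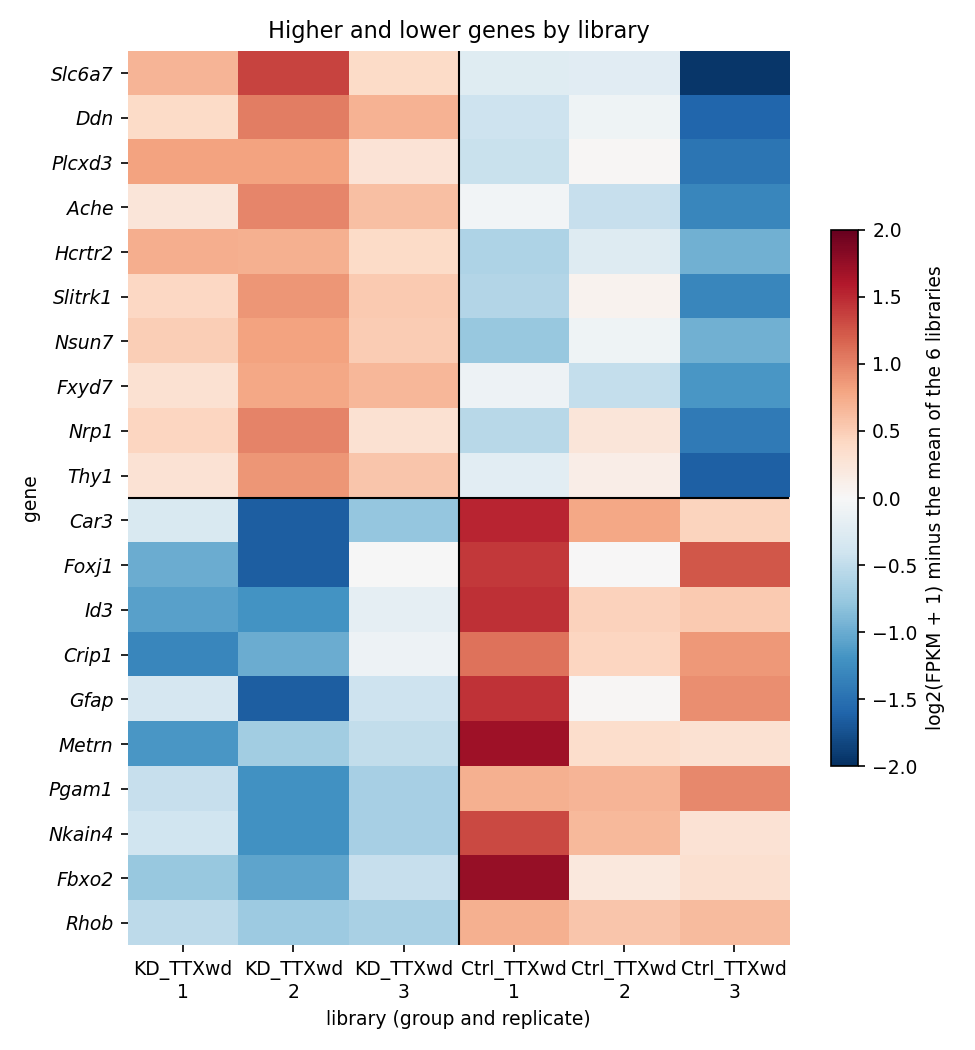
Log2(FPKM + 1) minus the mean of the 6 libraries for the 10 higher genes with the largest differences, and for Rhob and the 9 other lower genes with the largest, by library, with the KD_TTXwd columns left of the Ctrl_TTXwd columns. The darkest blue among the higher genes is in Ctrl_TTXwd replicate 3, the darkest red among most of the lower genes is in Ctrl_TTXwd replicate 1, and Rhob is even within each group.

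Among activity-induced genes, Jun, Srf and Arc lay below the controls in every knockdown library and Crem, Homer1 and Ptgs2 lay above them. Of 24 activity-induced transcription factors tested, none passed by limma (1 higher and 3 lower at an unadjusted p under 0.05), 1 lay above the controls in every knockdown library and 4 lay below. Of all genes tested, 10.8% lay above and 9.03% below. With Ctrl_TTXwd replicate 3 left out, 1 of the factors lay above and 9 lay below, where 20.3% and 23.1% of all genes did. These shares are the background of the counts of the other lists. The median of the factors, as a log2 difference, was -0.22 (-0.21 without Ctrl_TTXwd replicate 3), against -0.019 (0.0044) over all genes tested. The authors' deposited table marks 3 of them, Jun, Junb and Egr1, as lower and none as higher. Jun, an AP-1 subunit, stood at 35.8, 38.6 and 33.9 FPKM in KD_TTXwd and at 82.5, 54.0 and 44.0 FPKM in Ctrl_TTXwd (log2 difference -0.67, limma adjusted p = 0.307), and the groups did not overlap. Junb stood at 1.42, 3.42 and 5.49 FPKM in KD_TTXwd and at 11.6, 4.48 and 5.33 FPKM in Ctrl_TTXwd. Egr1, a zinc finger immediate-early factor, stood at 9.54, 14.7 and 10.7 FPKM in KD_TTXwd and at 31.3, 14.4 and 17.6 FPKM in Ctrl_TTXwd. In both genes the groups overlapped and the highest value was that of Ctrl_TTXwd replicate 1. Srf, the serum response factor, stood at 10.1, 11.7 and 12.3 FPKM in KD_TTXwd and at 16.7, 15.5 and 14.8 FPKM in Ctrl_TTXwd (-0.43, limma adjusted p = 0.312), without overlap. Crem, a cAMP-responsive factor, was the one that lay above, with 15.1, 15.7 and 15.9 FPKM in KD_TTXwd and 10.6, 12.5 and 12.0 FPKM in Ctrl_TTXwd (0.39, limma adjusted p = 0.512). Fos, a dimer partner of Jun, stood at 10.9, 25.7 and 30.2 FPKM in KD_TTXwd and at 18.51, 14.2 and 22.7 FPKM in Ctrl_TTXwd, with overlapping groups and a limma adjusted p of 0.868.

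Of 26 activity-induced effectors tested, none passed by limma (4 higher and 1 lower at an unadjusted p under 0.05), 4 lay above and 2 lay below without overlap (6 and 5 without Ctrl_TTXwd replicate 3), and the median was 0.025 (-0.0045 without it). Arc, which removes AMPA receptors from synapses, stood at 1.84, 1.16 and 2.16 FPKM in KD_TTXwd and at 4.88, 2.39 and 2.73 FPKM in Ctrl_TTXwd (log2 difference -0.65, limma adjusted p = 0.422). The groups did not overlap, and the authors' deposited table leaves Arc unmarked at q = 0.0522. Bdnf, the brain-derived neurotrophic factor, stood at 19.4, 26.5 and 32.1 FPKM in KD_TTXwd and at 11.1, 22.2 and 12.2 FPKM in Ctrl_TTXwd (0.77, limma adjusted p = 0.363). Its groups overlapped by Ctrl_TTXwd replicate 2, and the authors' deposited table marks it as higher (q = 0.0230). Homer1, a postsynaptic scaffold with a short activity-induced form, stood at 41.2, 38.7 and 32.6 FPKM in KD_TTXwd and at 22.9, 29.5 and 26.4 FPKM in Ctrl_TTXwd (0.50, limma adjusted p = 0.328), without overlap. The values do not separate the forms of Homer1. Ptgs2, the inducible cyclooxygenase, stood at 1.46, 2.23 and 1.71 FPKM in KD_TTXwd and at 0.358, 0.583 and 0.424 FPKM in Ctrl_TTXwd (0.94, limma adjusted p = 0.263). All its control libraries lay under 1 FPKM. Gadd45g, a stress and DNA demethylation gene, stood at 7.73, 9.81 and 9.42 FPKM in KD_TTXwd and at 39.4, 14.5 and 15.8 FPKM in Ctrl_TTXwd (-1.14, limma adjusted p = 0.281). The authors' deposited table marks Ptgs2 and the tachykinin precursor Tac1 as higher, and Gadd45g and Cyr61 as lower. Mef2c, Npas4 and Nr4a1 are not analysed here.

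The MEF2 factors and the class IIa histone deacetylases that repress them gave no gene without overlap among 5 tested. Mef2a stood at 19.2, 14.2 and 15.1 FPKM in KD_TTXwd and at 16.3, 16.1 and 19.5 FPKM in Ctrl_TTXwd. Mef2d stood at 11.0, 11.4 and 11.8 FPKM in KD_TTXwd and at 16.7, 13.7 and 9.56 FPKM in Ctrl_TTXwd. Hdac9, whose product binds MEF2 factors, stood at 35.8, 45.2 and 34.0 FPKM in KD_TTXwd and at 22.8, 35.3 and 11.2 FPKM in Ctrl_TTXwd (log2 difference 0.84, limma adjusted p = 0.352), and the difference was 0.41 without Ctrl_TTXwd replicate 3. The authors' deposited table marks it as higher, and its groups overlapped by the 35.3 FPKM of Ctrl_TTXwd replicate 2. The median of the 5 was -0.096. It was -0.38 without Ctrl_TTXwd replicate 3, where 2 of the 5 lay below and none above.

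Among kinases and calcium signalling genes, Prkx, Prkaa2 and Rcan2 stood about 2 times higher with knockdown in libraries that did not overlap, and none passed by limma. Prkx, a cAMP-dependent kinase of the X chromosome, stood at 33.2, 43.3 and 32.5 FPKM in KD_TTXwd and at 15.9, 20.6 and 18.2 FPKM in Ctrl_TTXwd (log2 difference 0.95, SE 0.17, limma adjusted p = 0.209). Prkaa2, a catalytic subunit of the energy sensor AMPK, stood at 19.6, 21.0 and 18.3 FPKM in KD_TTXwd and at 9.67, 12.0 and 8.86 FPKM in Ctrl_TTXwd (0.89, SE 0.16, limma adjusted p = 0.209). Hivep2, a zinc finger transcription factor, stood at 42.0, 49.2 and 40.8 FPKM in KD_TTXwd and at 22.2, 26.0 and 20.6 FPKM in Ctrl_TTXwd (0.91, SE 0.16, limma adjusted p = 0.209). In these 3 genes replicate 3 of the control lay among or near the other controls, and without it the differences were 0.96, 0.81 and 0.84. Of 22 calcium-responsive kinase, calcineurin and CREB genes tested, 3 lay above and 1 lay below without overlap, with a median of 0.20. With Ctrl_TTXwd replicate 3 left out 4 lay above and 4 lay below, with a median of 0.082. Rcan2, a calcineurin regulator, stood at 44.9, 60.7 and 40.9 FPKM in KD_TTXwd and at 21.2, 33.6 and 21.5 FPKM in Ctrl_TTXwd (0.93). Camk1d, a calmodulin-dependent kinase, stood at 22.2, 21.2 and 19.6 FPKM in KD_TTXwd and at 11.8, 13.6 and 13.6 FPKM in Ctrl_TTXwd (0.65). The CREB coactivator Crtc1 overlapped, with 6.60, 10.1 and 8.80 FPKM in KD_TTXwd and 22.4, 16.6 and 7.34 FPKM in Ctrl_TTXwd, where replicate 3 of the control was low; the log2 difference was -0.68 with it and -1.11 without it.

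Of 9 GluN3A interaction partners and related genes, none passed and none stood without overlap; the authors' deposited table marks Map1s, a microtubule-associated protein, as lower. Map1s stood at 1.38, 2.82 and 3.45 FPKM in KD_TTXwd and at 14.6, 6.16 and 2.88 FPKM in Ctrl_TTXwd, and it was Ctrl_TTXwd replicate 3 that lay inside the knockdown range. Of 15 mTORC1 genes 1 lay below without overlap. The authors' deposited table marks Akt1s1, an inhibitor of the complex, as lower, with 19.7, 34.0 and 23.7 FPKM in KD_TTXwd and 58.4, 48.3 and 21.6 FPKM in Ctrl_TTXwd. The log2 difference of Akt1s1 was -0.63, and -1.05 without Ctrl_TTXwd replicate 3. The medians were -0.027 for the partners and 0.0027 for the mTORC1 genes, and in each list 1 gene lay above and 4 lay below without that library. Of 15 p38 and stress kinase genes, 2 lay above and 1 lay below without overlap, and of 13 MAP kinase feedback genes none did. With Ctrl_TTXwd replicate 3 left out 2 of the stress kinase genes lay above and 2 below, and 3 of the feedback genes lay below.

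Among receptors for the inhibitory transmitter GABA, all 11 GABA-A subunits tested had a log2 difference above 0, and 4 lay above every control, against 10.8% of all genes. None lay below, and the median was 0.63. None passed by limma, with 4 higher and 0 lower at an unadjusted p under 0.05. Gabra5, the hippocampal extrasynaptic α5 subunit, stood at 146, 189 and 115 FPKM in KD_TTXwd and at 75.5, 139 and 48.1 FPKM in Ctrl_TTXwd (0.88, limma adjusted p = 0.363), a difference of 0.52 without Ctrl_TTXwd replicate 3. It overlapped by Ctrl_TTXwd replicate 2, and the authors' deposited table marks it as higher. Ctrl_TTXwd replicate 3 was the lowest of the 6 libraries for 10 of the 11 subunits, and without it the median was 0.37, with 4 above and none below. In TTX the median of the family was -0.32.

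Among glutamate receptors, 2 of 7 metabotropic receptors lay above the controls, Grm5 and Grm6. Grm5, the postsynaptic mGluR5, stood at 47.0, 42.2 and 30.8 FPKM in KD_TTXwd and at 27.5, 30.2 and 13.2 FPKM in Ctrl_TTXwd (log2 difference 0.79, limma adjusted p = 0.328). Its difference was 0.44 without Ctrl_TTXwd replicate 3. The median of the 7 was 0.53 with that library and 0.13 without it, where 3 lay above and 1 lay below. Of 20 AMPA and kainate receptor genes, 2 lay above and 1 lay below, with a median of 0.083; with Ctrl_TTXwd replicate 3 left out 2 lay above and 5 lay below, with a median of -0.10. Gria3, the GluA3 subunit, stood at 17.6, 16.9 and 12.5 FPKM in KD_TTXwd and at 7.99, 9.24 and 7.38 FPKM in Ctrl_TTXwd (0.85, limma adjusted p = 0.381). Of 28 postsynaptic scaffold and adhesion genes, 3 lay above and 1 lay below, with a median of 0.053. Their counts went the other way with Ctrl_TTXwd replicate 3 left out, at 4 above and 13 below, with a median of -0.11. With the locus span correction the medians of the AMPA and kainate genes and of the scaffolds were -0.021 and -0.061.

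No voltage-gated ion channel gene passed by limma either. Of 8 sodium channel genes, 2 lay above the controls in every knockdown library and 1 lay below. Scn2a1, the channel Nav1.2 of young axons, stood at 45.0, 46.2 and 33.1 FPKM in KD_TTXwd and at 24.0, 34.5 and 12.2 FPKM in Ctrl_TTXwd (log2 difference 0.89), and overlapped. Its difference was 0.49 without Ctrl_TTXwd replicate 3. The median of the 8 was 0.46 with that library and 0.22 without it, where again 2 lay above and 1 lay below. Of 42 potassium and HCN channels, 9 lay above and 2 lay below, with a median of 0.18; with Ctrl_TTXwd replicate 3 left out 9 lay above and 10 lay below, with a median of 0.054. Kcna4, the A-type channel Kv1.4, stood at 13.3, 17.6 and 15.0 FPKM in KD_TTXwd and at 6.24, 12.2 and 4.18 FPKM in Ctrl_TTXwd (1.03, limma adjusted p = 0.301). Of 15 voltage-gated calcium channel genes, 14 had a difference above 0, 2 lay above every control and none below, with a median of 0.31. With that library left out 3 lay above and 1 lay below, with a median of 0.024.

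Of 28 synaptic vesicle and release genes, 5 lay above every control and none below, but 5 lay above and 7 below when Ctrl_TTXwd replicate 3 was left out. Sv2b, a vesicle glycoprotein, stood at 58.7, 53.2 and 49.3 FPKM in KD_TTXwd and at 27.2, 37.0 and 19.9 FPKM in Ctrl_TTXwd (log2 difference 0.95, limma adjusted p = 0.263). Slc17a7, the vesicular glutamate transporter VGLUT1, stood at 37.2, 25.5 and 29.1 FPKM in KD_TTXwd and at 100, 129 and 16.4 FPKM in Ctrl_TTXwd (-0.97, limma adjusted p = 0.523). Ctrl_TTXwd replicate 3 lay under every knockdown library while the other controls lay far above; without it the difference was -1.88 (limma adjusted p = 0.108). The vesicle list turned with that library too: it was the lowest of the 6 for 25 of the 28 genes, and the median was 0.29 with it and -0.043 without it. For these neuronal lists the low general neuron markers of Ctrl_TTXwd replicate 3 move with the differences, and their part in them was not tested.

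**Figure D4:**
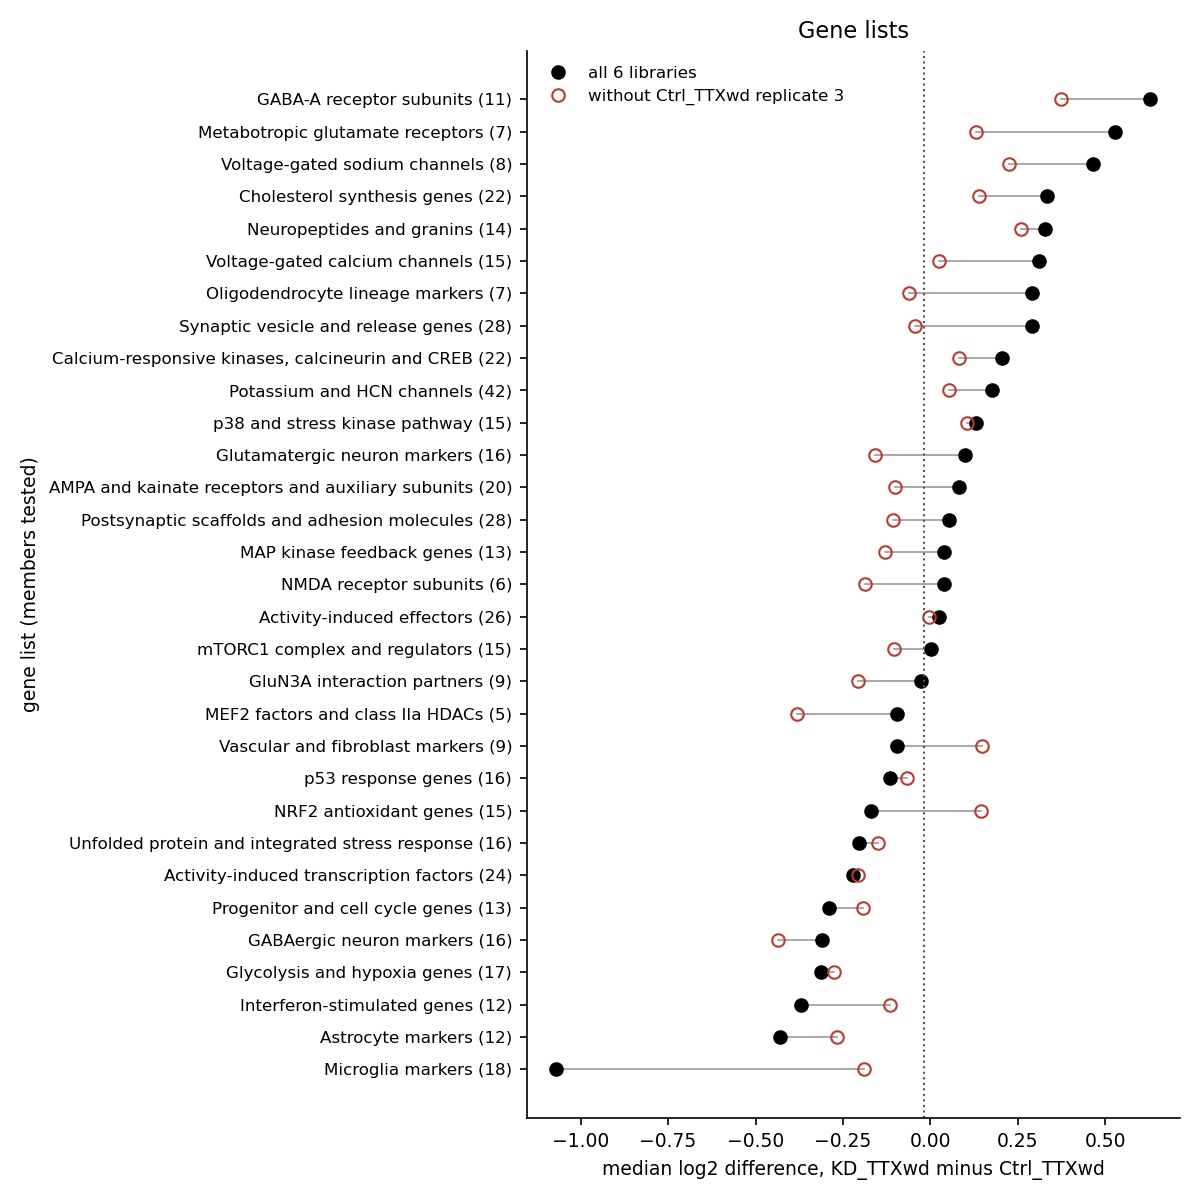
Median log2 difference, KD_TTXwd minus Ctrl_TTXwd, of the members tested of each of 31 gene lists, with all 6 libraries (filled) and without Ctrl_TTXwd replicate 3 (open); the dotted line is the median of all genes tested, -0.019. GABA-A receptor subunits lie at 0.63 and 0.37, synaptic vesicle genes at 0.29 and -0.043, and microglia markers at -1.07 and -0.19.

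No gene of the metabolic and stress lists passed by limma. Of 17 glycolysis and hypoxia genes, 2 lay above and 4 lay below without overlap, 1 was higher and 5 were lower at an unadjusted p under 0.05, and the median was -0.31. With Ctrl_TTXwd replicate 3 left out 2 lay above and 8 lay below, with a median of -0.27. Besides Pgam1, Ldha, the lactate dehydrogenase subunit of fermenting cells, stood at 12.1, 14.3 and 11.2 FPKM in KD_TTXwd and at 33.6, 39.2 and 23.6 FPKM in Ctrl_TTXwd (log2 difference -1.27, limma adjusted p = 0.413). Eno1, the non-neuronal enolase, stood at 10.8, 17.6 and 15.6 FPKM in KD_TTXwd and at 37.2, 36.6 and 18.1 FPKM in Ctrl_TTXwd (-0.97, limma adjusted p = 0.415). Pfkp, the platelet-type phosphofructokinase, was one of the 2 above, with 57.4, 73.7 and 62.3 FPKM in KD_TTXwd and 51.7, 51.8 and 34.2 FPKM in Ctrl_TTXwd. Pgam1, Ldha and Eno1 have processed pseudogenes, and how reads shared with those were counted is not given in the sources used here. Of 22 cholesterol synthesis genes, 16 had a difference above 0 and 6 below it, with a median of 0.33 (0.14 without Ctrl_TTXwd replicate 3), and none stood without overlap in either case. Hmgcs1, an early enzyme of the pathway, stood at 487, 1071 and 438 FPKM in KD_TTXwd and at 268, 787 and 281 FPKM in Ctrl_TTXwd, and replicate 2 was the highest library of each group. Of 16 unfolded protein response genes, 3 lay below and none above, with a median of -0.20 (-0.15 without Ctrl_TTXwd replicate 3, with 1 above and 4 below). Of 16 p53 response genes, 2 lay below and none above, with a median of -0.12 (-0.067 without that library, with 3 above and 5 below).

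Microglia and astrocyte markers were lower with knockdown in the means, and the microglia markers were highest in Ctrl_TTXwd replicate 3. The summed FPKM of 18 microglia markers was 685, 101 and 850 in KD_TTXwd and 1130, 188 and 2795 in Ctrl_TTXwd. At each replicate number the knockdown sum lay under the control sum, though the labels do not say whether the numbers pair the samples. All 18 were highest in Ctrl_TTXwd replicate 3, all 18 had their lowest knockdown value in replicate 2, and none stood without overlap. The authors' deposited table marks 16 of the 18 as lower. C1qa, a complement subunit made by microglia, stood at 72.1, 6.52 and 98.1 FPKM in KD_TTXwd and at 168, 19.1 and 316 FPKM in Ctrl_TTXwd (log2 difference -1.44, limma adjusted p = 0.592). Libraries of the same group thus differed by more than the groups did. The difference of C1qa was -0.62 without Ctrl_TTXwd replicate 3, and the median of the list was -1.07 with that library and -0.19 without it. Leaving out that library alone kept KD_TTXwd replicate 3, whose sum of 850 was the highest of the knockdown libraries.

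Of 12 astrocyte markers, 11 had a difference below 0, 3 lay below every control and the median was -0.43 (-0.27 without Ctrl_TTXwd replicate 3, again with 3 below). Besides Gfap these were Aldh1l1, a folate enzyme of astrocytes, with 4.34, 2.83 and 4.64 FPKM in KD_TTXwd and 6.84, 7.54 and 7.02 FPKM in Ctrl_TTXwd, and the aldolase Aldoc, with 167, 184 and 165 FPKM in KD_TTXwd and 308, 273 and 207 FPKM in Ctrl_TTXwd. The glutamate transporters Slc1a2 and Slc1a3, which define astrocytes as well, overlapped, with log2 differences of 0.21 and -0.27. Of 16 GABAergic neuron markers, 11 had a difference below 0, and the median was -0.31. The marker that lay above every control was Gad1, which makes GABA, and none lay below. Gad1 stood at 52.2, 47.5 and 40.0 FPKM in KD_TTXwd and at 35.9, 39.5 and 33.6 FPKM in Ctrl_TTXwd. Gad2, which also makes GABA, went the other way. It stood at 11.3, 9.28 and 7.38 FPKM in KD_TTXwd and at 16.98, 18.3 and 11.2 FPKM in Ctrl_TTXwd. The groups of Gad2 overlapped by Ctrl_TTXwd replicate 3. With that library left out 1 marker of the list lay above and 8 lay below, with a median of -0.43. The authors' deposited table marks 2 of these markers, Maf and Calb1, as lower and none as higher. Of 16 glutamatergic neuron markers, 2 lay above and none below, with a median of 0.099. With that library left out 2 lay above and 5 lay below, with a median of -0.16, and the authors' deposited table marks 2 of them as lower and none as higher. Their summed FPKM was 640, 739 and 545 in KD_TTXwd and 652, 875 and 298 in Ctrl_TTXwd.

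**Figure D5:**
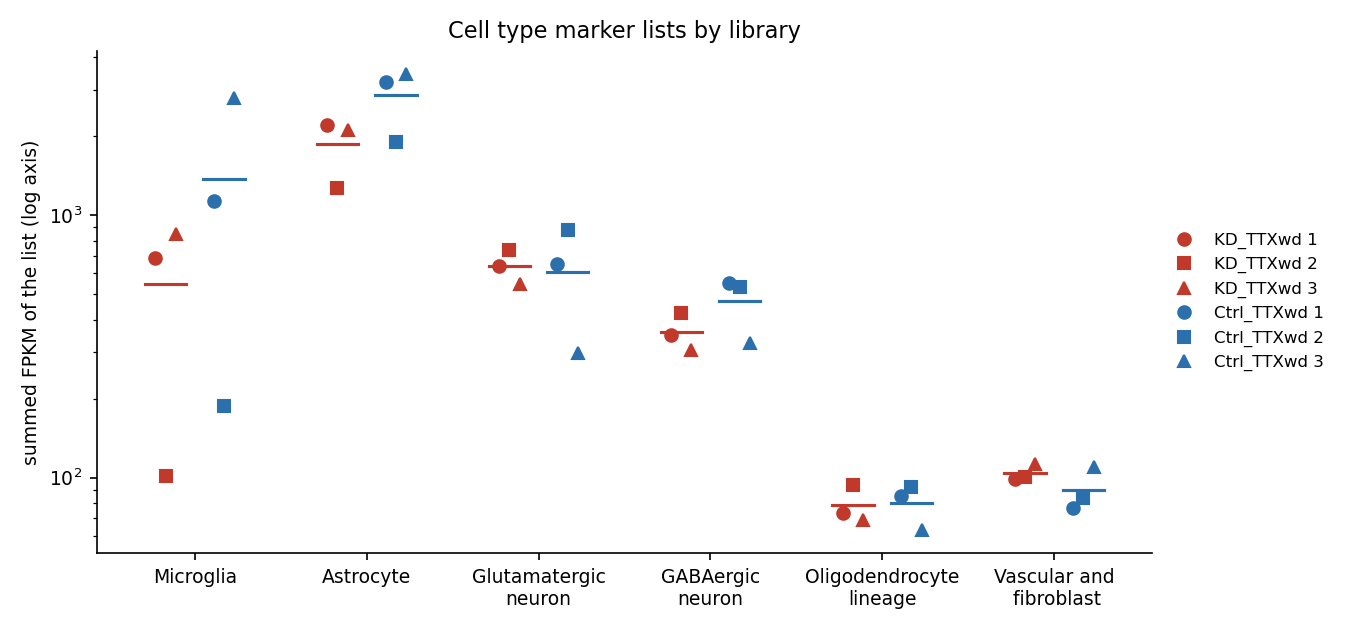
Summed FPKM of 6 cell type marker lists, on a log axis, with 1 point per library and a bar at the group mean, KD_TTXwd left (red) and Ctrl_TTXwd right (blue). Microglia markers span 101 to 850 in KD_TTXwd and 188 to 2795 in Ctrl_TTXwd, and Ctrl_TTXwd replicate 3 is the highest library for microglia and astrocytes and the lowest for glutamatergic neurons.

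The differences were graded by the length of the locus. Across the 10689 genes, Spearman's rho between locus span and the log2 difference was 0.287, and 0.287 without Ctrl_TTXwd replicate 3; genes are not independent replicates, so no p is given. In the tenth of genes with the shortest loci (median 2.54 kb) the median difference was -0.20, with 63 genes above and 143 below every control. In the tenth with the longest (266 kb) the median was 0.15, with 177 genes above and 52 below. Genes that the authors' deposited table marks as higher had a median span of 80.3 kb, those that it marks as lower 12.6 kb, and all tested genes 23.8 kb. In single libraries the span correlated with the deviation from the mean of the 6 at 0.362, 0.075 and 0.123 in KD_TTXwd and at -0.245, -0.143 and -0.053 in Ctrl_TTXwd. Every knockdown library lay above 0 and every control below, and KD_TTXwd replicate 1 and Ctrl_TTXwd replicate 1 lay farthest out. In TTX the same correlation had the other sign, -0.318. With the span trend removed, Rhob stood at -1.03 (limma adjusted p = 0.184) and Grin2a at 0.83, while the median of the GABA-A subunits was 0.46 and that of the activity-induced factors -0.035.

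Whether the knockdown acted differently after withdrawal than in TTX was tested as the difference between the effects of knockdown in both conditions. No gene passed by limma (0 of 10689, 0%), 1050 genes had an unadjusted p under 0.05 (9.82%), and in TTX itself no gene passed for knockdown (0%), with 117 higher and 295 lower at an unadjusted p under 0.05. The smallest p-values belonged to Snapc2, Hivep2, Prkaa2, Prkx and Ddit4l, all at an adjusted p of 0.492. Hivep2 stood at 43.1, 38.2 and 37.0 FPKM in KD_TTX and at 55.2, 39.5 and 42.4 FPKM in Ctrl_TTX, so its log2 difference was -0.20 in TTX and 0.91 after withdrawal. Prkaa2 stood at 19.1, 20.2 and 14.9 FPKM in KD_TTX and at 20.7, 19.8 and 20.3 FPKM in Ctrl_TTX (-0.17 in TTX, 0.89 after withdrawal). In both genes the 3 Ctrl_TTXwd libraries were the lowest of all 12. Snapc2, a subunit of the complex that activates transcription of small nuclear RNA genes, stood at 22.0, 30.4 and 32.4 FPKM in KD_TTXwd and at 50.3, 42.4 and 43.8 FPKM in Ctrl_TTXwd (-0.68), against a difference of 0.49 in TTX. Ddit4l, a stress-induced inhibitor of mTORC1, stood at 32.9, 37.2 and 48.2 FPKM in KD_TTXwd and at 48.0, 42.8 and 71.0 FPKM in Ctrl_TTXwd (-0.43, and -0.21 without Ctrl_TTXwd replicate 3). In TTX it stood at 13.5, 20.8 and 16.7 FPKM in KD_TTX and at 8.59, 7.53 and 4.12 FPKM in Ctrl_TTX (1.25). Of the 1154 genes that lay above the controls after withdrawal, 50 also lay above and 101 lay below them in TTX; of the 965 that lay below, 74 also lay below and 47 lay above. Over all 10689 genes tested, 421 lay above and 845 lay below in TTX, so genes below outnumbered those above in each of these sets. The excess below among the 1154 was thus not particular to them. Across all genes tested, Spearman's rho between the knockdown differences after withdrawal and in TTX was -0.224. With the locus span correction it was -0.147.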

How the data were processed

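Per the labels' protocols, stranded poly(A) RNA libraries were read as single ends of 50 nt. The submitters' processing notes name genome build rn5 and the tools Cuffdiff, Cufflinks, TopHat2 and Trimmomatic. Tool versions and settings, the annotation and the scaling between libraries are not given in the sources used here. Per the file headers, the deposited library values are the authors' FPKM, their fold changes are log2 ratios of group FPKM (turned here to knockdown over control), and each comparison has the authors' p-value and q-value. The table of 10730 genes appears to have been selected on Ctrl_TTX replicate 1, whose lowest value is 1.00 FPKM while the other libraries reach 0.0436 FPKM or less. One gene whose library mean differed from the authors' group value by over 1% was left out, and 18 symbols that a spreadsheet had turned into dates were resolved by RefSeq transcript.

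The filter asked for 1 FPKM or more in 3 or more of the 12 libraries, which 10689 of 10729 genes met; the other 40 stayed out. The model was a limma fit (3.58.1, in R 4.3.3, by lmFit, contrasts.fit and trended eBayes) to log2(FPKM + 1) that gave each of the 4 groups its own mean, two-sided, with Benjamini-Hochberg adjustment and a threshold of 0.05. The code was tested on simulated data. Differences on this scale understate the fold of low genes. A gene is said to lie above or below when its 3 knockdown libraries do not overlap the 3 controls. Depth is unknown, so no counting error is given. Tables and figures were made with Python 3.11.15 and matplotlib 3.10.9.

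The comparison, the 31 gene lists and the rules were chosen with earlier results of these data known, so the lists are described and not tested. Named genes are the NMDA receptor subunits, Fos, Arc, Bdnf and Homer1. The rule adds in each direction 10 genes of the largest difference without overlap and with at least 2 FPKM in the higher group, taken from limma calls and then from the authors' calls. It further adds up to 4 called or marked genes per list and 5 with the smallest p for the difference between conditions. Crem, Srf, Mef2a, Mef2d, Pfkp, Hmgcs1, Aldoc, Gad1, Gad2, Slc1a2 and Slc1a3 were named after their values were seen. RefSeq promoters (GRCr8) were matched by transcript for 8283 tested genes. Alternatives were other pseudocounts, filters, scalings and variance models, a replicate block, fewer libraries, and leaving out each library; 3 of 26 were added after seeing the data. Replicate numbers were not taken to pair the samples. Values of some members of the gene lists are not reported here.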

Additional observations from a re-analysis of the deposited data

How the results depend on the processing

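Of 26 alternatives, the number of genes called lower was 0 with quantile normalization, the replicate block, only the 6 libraries compared, the locus span correction, median ratios without Ctrl_TTXwd replicate 3 and only the 5 libraries compared, and 0 to 4 when libraries were left out; 0 were called higher in any. The cause was not tested. Deviations of same-numbered libraries correlated at -0.331, 0.875 and 0.563, and those of differently numbered ones at -0.785 to 0.527. The labels do not say whether the numbers pair the samples, and these values do not settle it. The replicate block gave 667 higher and 714 lower genes at an unadjusted limma p under 0.05. Leaving out libraries gave 276 to 944 higher and 262 to 1034 lower genes at that p, 378 to 1537 for the difference between conditions, and 1204 to 2279 higher and 1154 to 2464 lower genes without overlap, fewer libraries being easier to separate. Without Ctrl_TTXwd replicate 3, median ratios gave 1007 lower genes and the 5 compared libraries 1485. At q under 0.01 the authors' deposited table marks 62 higher and 269 lower genes. Leaving out libraries, Grin1 ran from -0.60 to 0.050, Grin2c from -0.15 to 0.16, Grin2d from -0.23 to 0.31, Fos from -0.16 to 0.61 and Nrgn from -1.39 to 0.14 on the log2 scale; without Ctrl_TTXwd replicate 3, Grin2c stood at -0.15 with median ratios and with 5 libraries, and Grin2d at -0.23 with both. List medians over left-out libraries ran from 0.082 to 0.31 for calcium-responsive kinases, -0.48 to 0.14 for GABAergic markers, -0.22 to 0.15 for GluN3A partners, -0.13 to 0.11 for MAP kinase feedback genes, -0.41 to 0.075 for MEF2 factors, -0.36 to -0.14 for progenitor genes and 0.024 to 0.40 for calcium channels. With the locus span correction the feedback genes stood at 0.17, the activity-induced factors at -0.035, the GABAergic markers at -0.089 and the progenitor genes at -0.059. Without Ctrl_TTXwd replicate 3, median ratios gave -0.13, -0.38, 0.086 and 0.027 for feedback genes, MEF2 factors, calcium-responsive kinases and calcium channels, and the 5 libraries gave -0.13, -0.38, 0.082 and 0.024. At a mean FPKM of at least 5 the vascular markers left stood at 1.09. The other named genes kept their direction and side of the threshold in the alternatives run, Rhob and Pgam1 excepted. Pgam1 was called without Ctrl_TTX replicate 1 (limma adjusted p = 0.0226), and Rhob is described in the text. Several other list medians changed sign over left-out libraries. Synaptic vesicle genes ran from -0.043 to 0.47, glutamatergic markers from -0.16 to 0.28 and NRF2 genes from -0.32 to 0.15. Microglia markers kept their sign but ran from -2.07 to -0.16, and GABA-A subunits kept theirs, from 0.37 to 0.82. Depth is unknown, so it cannot be said which low genes were out of reach.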

Other observations

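Several of the 20 genes with the smallest limma p belong to no list; some are given here as values, chosen after their values were seen. Ipo9, a nuclear import receptor, stood at 25.4, 24.6 and 23.6 FPKM in KD_TTXwd and at 43.3, 47.7 and 41.5 FPKM in Ctrl_TTXwd (log2 difference -0.82, limma adjusted p = 0.173). The groups did not overlap, and it had the second smallest p. Ube2j1, a ubiquitin-conjugating enzyme, stood at 33.7, 26.9 and 29.5 FPKM in KD_TTXwd and at 47.6, 50.8 and 54.1 FPKM in Ctrl_TTXwd. Arl6ip1, a membrane-shaping protein, stood at 135, 114 and 99.6 FPKM in KD_TTXwd and at 190, 218 and 199 FPKM in Ctrl_TTXwd. Txndc5, a disulfide isomerase, stood at 34.7, 19.3 and 34.6 FPKM in KD_TTXwd and at 71.8, 55.4 and 107 FPKM in Ctrl_TTXwd. These 3 genes lay below the controls in every knockdown library, with limma adjusted p values of 0.209 to 0.263. On the higher side, Grb10, an adaptor that inhibits insulin receptor signalling, stood at 18.3, 24.6 and 23.6 FPKM in KD_TTXwd and at 8.42, 12.2 and 8.49 FPKM in Ctrl_TTXwd (1.12, limma adjusted p = 0.263). Gucy1a3, a subunit of the nitric oxide receptor guanylate cyclase, stood at 19.2, 23.3 and 18.3 FPKM in KD_TTXwd and at 8.69, 13.0 and 6.55 FPKM in Ctrl_TTXwd (1.07, limma adjusted p = 0.263).

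Of 9 vascular and fibroblast markers, 4 had a difference above 0 and 5 below it, none stood without overlap, and the median was -0.097 (0.15 without Ctrl_TTXwd replicate 3, with 1 above). The authors' deposited table marks the matrix proteins Dcn and Lum as higher and Fn1 as lower. Dcn stood at 34.6, 42.7 and 26.1 FPKM in KD_TTXwd and at 13.2, 26.1 and 6.00 FPKM in Ctrl_TTXwd (log2 difference 1.32, limma adjusted p = 0.302), and its difference was 0.83 without Ctrl_TTXwd replicate 3. The log2 differences of Lum and Fn1 were 1.08 and -0.62 (0.70 and -0.28 without that library). Of 15 NRF2 antioxidant genes, 14 were highest in Ctrl_TTXwd replicate 3, and their median was -0.17 with that library and 0.15 without it. Hmox1, the inducible heme oxygenase, stood at 41.6, 27.6 and 76.8 FPKM in KD_TTXwd and at 88.6, 55.7 and 196 FPKM in Ctrl_TTXwd (-1.13, and -0.65 without replicate 3).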
